A study of Mus musculus with 72 samples.

Results

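Gene expression in the inflamed mouse colon was compared between 12 mice given a low dose of TNFR-Ig and 15 mice given a control antibody. These 27 arrays were chosen by the treatment in their titles from the 72 arrays of the series, with 1 array per mouse. All were wild type Balb/c mice with acute colitis, which was induced by giving trinitrobenzene sulfonic acid (TNBS), a hapten, into the rectum in a mixture of saline and ethanol. The dose of TNBS was 70 µg per g body weight on day 0, and the animals were killed on day 4. TNFR-Ig was injected into the abdominal cavity before TNBS at 0.3 mg/kg, an amount that the study picked because a larger one had a much stronger effect on colon length and body weight. Control mice were injected in the same way with 10 mg/kg of an IgG2a antibody against human CD20, called control IgG here. TNFR-Ig mice received no antibody, so every difference between these groups holds both the presence of TNFR-Ig and the absence of control IgG. The work was done as experiment 7 (6 TNFR-Ig and 8 control IgG mice) and experiment 10 (6 and 7 mice). Each experiment was also an array run for these mice, and the experiment and the run cannot be told apart. Other groups used for reference were colitic mice with no injection (untreated, n = 8), mice given an antibody against the cytokine TWEAK at 10 mg/kg (n = 14) and mice given TNFR-Ig at 0.3 mg/kg together with that antibody (the combination, n = 15). The labels give neither age nor sex. P-values rest on the spread between mice within groups, pooled over all 72 arrays and not over the compared groups alone. The 72 arrays include 8 naive mice, which were given no TNBS and belong to experiment 10. RNA came from pieces cut from the frozen, rolled colon, so that fewer cells of a type and less RNA per cell cannot be told apart.

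TNF is a cytokine made mainly by macrophages and T cells that acts through the receptors TNFR1 and TNFR2. Both receptors recruit adaptor proteins that release NF-kB transcription factors from their inhibitors, and NF-kB then switches on chemokines, adhesion molecules and its own inhibitors. TNFR-Ig joins the binding part of a TNF receptor to an immunoglobulin tail and holds TNF away from cells, and antibodies to TNF are used against inflammatory bowel disease.

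Values are log2 levels, 1 per probe set and array, with a floor of 2.08, and differences are log2 differences with their standard error (SE), TNFR-Ig minus control IgG unless another pair is named. A gene was called, and is said to have risen or fallen, at a Benjamini-Hochberg adjusted p under 0.05 in limma (two-sided; adj. p), fitted on all 72 arrays with the experiment as a term. Of 18193 genes on the array 12534 were bright enough to be tested. The arrays were alike in overall level, with medians of 4.60 to 4.77. The 3 prime minus 5 prime difference of Actb, which is larger where RNA is degraded, overlapped between the groups in both experiments (0.961 to 1.11 against 0.966 to 1.18 in experiment 7, and 1.05 to 1.32 against 1.02 to 1.18 in experiment 10). Colonocyte markers were bright on every array, as colon tissue requires: their mean level ran from 12.39 to 12.99 in TNFR-Ig mice and from 12.69 to 12.94 in control IgG mice. The number of arrays limits the precision of every value.

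Against control IgG, genes that rose in TNFR-Ig mice included 8 of 24 glucocorticoid-induced genes, 6 of 22 macrophage markers, 4 of 12 complement genes and 3 of 11 adipocyte and lipid droplet genes, and genes that fell included 8 of 21 heat shock and chaperone genes. Single changes were small: of the 512 genes called, 8 rose and 2 fell by 1 log2 unit or more, and the median size was 0.24. In all 295 genes (2.35% of those tested) rose and 217 (1.73%) fell, and the median difference over all tested genes was -0.0012. The largest rise was that of Cyp1b1, and the largest fall that of Akr1c21. The count rested on single mice to a degree: it was 218 without TNFR-Ig replicate 1 of experiment 10, 233 without replicate 8 and 313 without replicate 4 of the same group, 328 without TNFR-Ig replicate 1 of experiment 7, 304 and 308 without control IgG replicates 5 and 4 of experiment 10, and 788 without TNFR-Ig replicate 5 of experiment 7. Among the named genes, calls were lost most often without the same mice: 31 and 30 without TNFR-Ig replicates 1 and 8, 24 without replicate 4 and 23 and 19 without control IgG replicates 5 and 4 of experiment 10, and 20 without TNFR-Ig replicate 1 of experiment 7.

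Few genes of the TNF pathway itself were called. Tnf was not tested because it was too dim: it lay between 2.08 and 2.91 in TNFR-Ig mice and between 2.11 and 3.24 in control IgG mice, within 0.1 of the floor on 6 of 12 and 9 of 15 arrays. Of 4 TNF family ligands tested 0 were called by limma, and 1 had an unadjusted p under 0.05. This was Tnfsf11, which encodes the bone and lymphoid cytokine RANKL, at 1.10 ± 0.48 (adj. p = 0.17); it was 2.65 lower in control IgG than in untreated mice (adj. p = 0.0018). Among 15 receptors of the family 1 fell and 0 rose, and 5 had an unadjusted p under 0.05. The receptor that fell was Tnfrsf10b, a death receptor for the ligand TRAIL. Its level was 2.36, 2.37 and 2.57 (lowest, median, highest) in TNFR-Ig mice and 2.36, 2.44 and 3.78 in control IgG mice, so that the TNFR-Ig arrays all lay near the floor and within the range of the control arrays. The difference was -0.30 ± 0.093 (adj. p = 0.0499), and the gene was called in 12 of the 27 fits that left out 1 array. Tnfrsf1a, the gene of TNFR1, lay at 10.08, 10.54 and 10.90 against 10.04, 10.42 and 10.61 in control IgG mice (0.14 ± 0.087, adj. p = 0.35). For Tnfrsf1b, the gene of TNFR2, the difference was 0.012 ± 0.12 (adj. p = 0.97), with levels of 10.31 to 11.21 and 10.50 to 11.08. Tnfrsf12a, which encodes the TWEAK receptor, had medians of 8.56 and 8.99 and a difference of -0.40 ± 0.19 (adj. p = 0.22). The ranges of all 3 receptor genes overlapped between the groups.

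Of 19 genes of TNF receptor signalling and the NF-kB pathway 0 were called by limma over both experiments, with 3 at an unadjusted p under 0.05. Rela, the main activating subunit of NF-kB, was at 0.075 ± 0.044, Relb and Nfkb2, subunits of the non-canonical branch, at 0.15 ± 0.092 and 0.044 ± 0.071, and the adaptor gene Traf1 at 0.27 ± 0.17. Birc3, a ubiquitin ligase that NF-kB itself induces, was at 0.17 ± 0.060 (adj. p = 0.082). Within experiment 10, where 4.88% of all genes rose and 3.97% fell, 3 of the 19 rose: Birc3 by 0.31, Relb by 0.38 and Ikbkg, the regulatory subunit of the kinase that frees NF-kB, by 0.23 (adj. p = 0.016, 0.043 and 0.022). Birc3 levels did not overlap there, with 11.78 to 11.99 in 6 TNFR-Ig and 11.37 to 11.71 in 7 control IgG mice. Of 14 feedback inhibitors of NF-kB 1 rose. Tnip1, which encodes a ubiquitin-binding brake on TNF receptor signalling, had levels of 10.75, 11.06 and 11.41 in TNFR-Ig mice and 10.30, 10.78 and 11.08 in control IgG mice. It was 0.29 ± 0.070 higher (adj. p = 0.012) and was called in 27 of 27 fits that left out 1 array. In experiment 10 its groups did not overlap (11.03 to 11.41 against 10.30 to 10.87; 0.51, adj. p = 0.00035), while in experiment 7 the difference was 0.074. Nfkbia and Tnfaip3, the best known feedback inhibitors, were at 0.093 ± 0.059 and 0.080 ± 0.097.

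Limma called 0 canonical NF-kB targets, cytokines or neutrophil markers over both experiments. Of all tested genes 21.0% had an unadjusted p under 0.05, which is the share to set beside the unadjusted counts over both experiments. Of 25 canonical NF-kB target genes limma called 0 (4 at an unadjusted p under 0.05, 3 of them higher), with a median difference of 0.12. Vcam1 and Icam1, adhesion molecules that vessel walls show to white blood cells, were at 0.40 ± 0.13 (adj. p = 0.054) and 0.44 ± 0.19 (adj. p = 0.16). Of 27 cytokines and chemokines 0 were called (5 at an unadjusted p under 0.05, 4 of them higher), with a median of 0.21. Of 12 neutrophil markers 0 were called and 2 had an unadjusted p under 0.05, with a median of 0.56. The mean level of the neutrophil list was 8.22, 9.98 and 10.66 (lowest, median, highest) in TNFR-Ig mice, 7.24, 9.11 and 11.35 in control IgG mice and 9.09, 10.67 and 11.90 in untreated mice. TNFR-Ig mice thus lay inside the range of the control IgG mice. Mmp8, the collagenase of neutrophil granules, was the marker that passed within experiment 10: it lay at 6.14, 9.18 and 10.55 in TNFR-Ig mice and at 2.29, 4.24 and 7.76 in control IgG mice (3.95 ± 1.32, adj. p = 0.047). In experiment 7 the medians were 9.17 and 8.39 and the difference was 0.0022.

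The largest rises were those of Cyp1b1, Prg4 and Galnt15. Cyp1b1, on chromosome 17, encodes a cytochrome P450 enzyme that oxidises steroids, retinoids and foreign compounds and is induced through the aryl hydrocarbon receptor. Its level was 3.18, 7.21 and 9.26 in TNFR-Ig mice and 2.08, 3.42 and 7.48 in control IgG mice. Most TNFR-Ig arrays were high and most control IgG arrays low, with overlap. The difference was 3.0 ± 0.80, or 8.01-fold (adj. p = 0.021). It passed in 25 of 27 fits that left out 1 array; without TNFR-Ig replicate 1 or 8 of experiment 10 it was 2.79 (adj. p = 0.055) and 2.83 (adj. p = 0.053). Of the 5 aryl hydrocarbon receptor targets tested Cyp1b1 alone was called, and the median of that list was 0.06. In untreated mice Cyp1b1 lay at 3.71, 8.91 and 10.10, with a median above those of both treated groups.

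Prg4, which encodes lubricin, a lubricating protein of joints and of the lining of body cavities, lay at 2.18, 4.59 and 7.53 in TNFR-Ig mice against 2.09, 2.71 and 4.85 in control IgG mice (1.74 ± 0.49, adj. p = 0.030). It was the 1 gene called among 6 mesothelial markers. Galnt15, a gene of an enzyme that starts sugar chains on mucin-type proteins, lay at 2.85, 3.89 and 7.80 against 2.08, 2.72 and 6.96 (1.56 ± 0.46, adj. p = 0.034). With 1 array left out Prg4 was called in 22 of 27 fits and Galnt15 in 17. The lowest values came without TNFR-Ig replicate 1 of experiment 10, at 1.44 (adj. p = 0.090) for Prg4 and 1.29 (adj. p = 0.10) for Galnt15. Control IgG mice reached down to the floor for these genes, and the lowest values there have no order.

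Zc3h6, which encodes a zinc finger protein of little known function, had the smallest adjusted p among the 10 largest rises. Levels of 7.47, 7.86 and 8.80 in TNFR-Ig mice stood against 5.54, 7.41 and 8.06 in control IgG mice (0.99 ± 0.16, adj. p = 0.00034), and the gene was called in 27 of 27 fits that left out 1 array. The low values all came from experiment 10, where control IgG mice lay between 5.54 and 6.69 and TNFR-Ig mice between 7.47 and 8.05. In experiment 7 the ranges overlapped (7.41 to 8.06 and 7.68 to 8.80). Gpr146, an orphan receptor gene linked to blood cholesterol, rose by 0.94 ± 0.21 (adj. p = 0.0062) and was also called in every such fit; its levels were 5.05 to 6.87 and 4.13 to 5.68. Adhfe1, the gene of a mitochondrial enzyme that oxidises hydroxybutyrate, rose by 0.98 ± 0.26 (adj. p = 0.020).

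**Figure D1:**
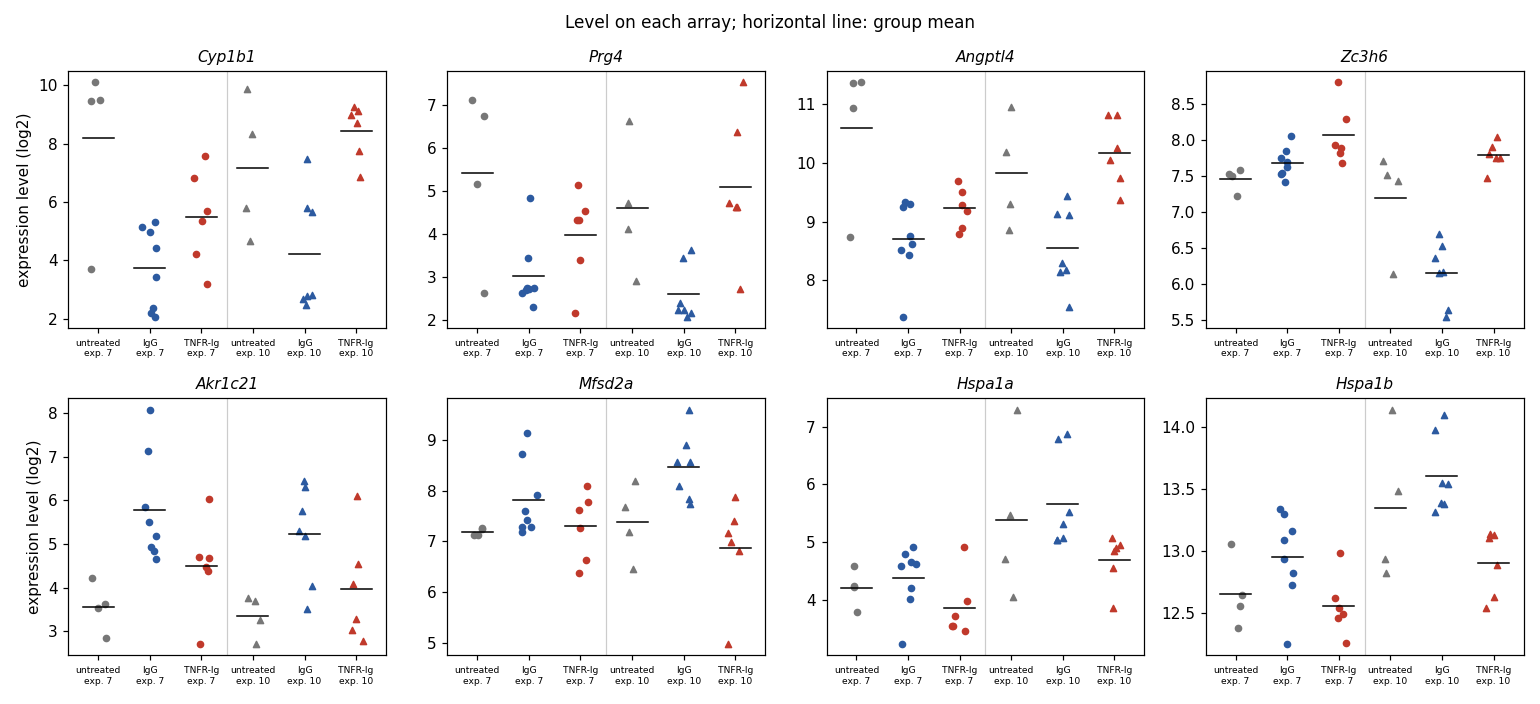
Log2 level of 8 genes on each array of untreated, control IgG and TNFR-Ig mice, in experiment 7 (circles) and experiment 10 (triangles); each line marks a group mean. Zc3h6 in experiment 10 separates control IgG mice (5.54 to 6.69) from TNFR-Ig mice (7.47 to 8.05), while most other genes overlap and untreated mice often lie with the TNFR-Ig mice.

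The falls of largest size were those of Akr1c21 and Mfsd2a. Akr1c21, a dehydrogenase gene for steroid hormones, lay at 2.71, 4.44 and 6.11 in TNFR-Ig mice, 3.50, 5.30 and 8.08 in control IgG mice and 2.71, 3.57 and 4.23 in untreated mice. It was 1.28 lower than with control IgG (SE 0.37, adj. p = 0.034), by a like amount in experiments 7 and 10 (-1.28 and -1.25), and passed in 18 of 27 fits that left out 1 array. Mfsd2a, which encodes a transporter of lysophospholipids, lay at 4.98, 7.21 and 8.10 against 7.18, 7.91 and 9.59 (-1.04 ± 0.25, adj. p = 0.010). Every control IgG array was thus close to or above the TNFR-Ig median. Rad51c, a gene of homologous recombination repair, fell by 0.67 (SE 0.13, adj. p = 0.0029) from a low level, 2.44 to 3.39 against 2.75 to 4.50; a dimmer probe set for it was at -0.14 (adj. p = 0.20). It was the 1 gene called among 21 DNA repair genes. Exog, a nuclease gene of mitochondria, fell by 0.61 (SE 0.13), also from a low level, 2.25 to 3.53 against 2.71 to 4.21. Suv39h2, which encodes a histone methyltransferase of silent chromatin, fell by 0.54 (SE 0.15), and its groups did not overlap in experiment 10 (7.77 to 8.72 against 8.85 to 9.46). Tubd1, Pdxp and Prss16, genes of a tubulin, a phosphatase and a thymic protease, fell by 0.49, 0.45 and 0.44. Tubd1 passed in 7 of 27 fits that left out 1 array. Among the genes called in either direction, 273 had further probe sets above the filter, 467 in all, of which 427 had the same sign as the gene. A shared sign is not a call. With every probe set tested in limma, dimmer ones of Galnt15 (0.91, adj. p = 0.083), Fam107a (0.73, adj. p = 0.088) and Nr1d2 (0.17, adj. p = 0.73) did not pass. Those of Adhfe1 (0.66, adj. p = 0.026) and Suv39h2 (-0.26, adj. p = 0.031) did.

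Heat shock proteins are chaperones that refold damaged proteins, and heat shock factor raises their genes through repeats of a short motif. Of 21 heat shock and endoplasmic reticulum chaperone genes tested 8 fell and 0 rose, against 1.73% of all tested genes that fell, with a median difference of -0.13. The promoters of the inducible HSP70 genes Hspa1a and Hspa1b and of the HSP110 gene Hsph1 are shown. They were picked as the members with the largest falls that carry a pair of such repeats within the 250 bases before the start site. The capitals mark a match to GAANNTTC or TTCNNGAA, a head-to-head or tail-to-tail pair of the motif's core, which read the same on both strands. Sequences are from RefSeq on build GRCm38.p6, at chr17:34972157-34972406 for Hspa1a, chr17:34959239-34959488 for Hspa1b and chr5:149636337-149636586 for Hsph1 (the first of 2 start sites), all on the minus strand and written 5′ to 3′.
Hspa1a: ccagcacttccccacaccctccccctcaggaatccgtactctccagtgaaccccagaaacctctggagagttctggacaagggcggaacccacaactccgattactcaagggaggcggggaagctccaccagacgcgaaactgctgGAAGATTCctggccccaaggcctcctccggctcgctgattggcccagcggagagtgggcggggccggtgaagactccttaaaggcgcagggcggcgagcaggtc
Hspa1b: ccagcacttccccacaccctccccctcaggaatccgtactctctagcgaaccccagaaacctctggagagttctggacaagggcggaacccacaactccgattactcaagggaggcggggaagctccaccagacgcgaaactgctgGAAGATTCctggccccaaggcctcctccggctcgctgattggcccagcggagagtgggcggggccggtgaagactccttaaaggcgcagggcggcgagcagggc
Hsph1: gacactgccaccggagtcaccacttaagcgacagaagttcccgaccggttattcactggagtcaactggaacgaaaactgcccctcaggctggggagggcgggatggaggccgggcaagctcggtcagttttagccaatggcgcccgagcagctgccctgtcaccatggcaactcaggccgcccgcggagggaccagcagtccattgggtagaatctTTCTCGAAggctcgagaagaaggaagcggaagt
The match ended 96 bases before the start site in Hspa1a and Hspa1b and 25 bases before it in Hsph1. The windows of Hspa1a and Hspa1b were identical at 247 of 250 positions. Such a match lay in the windows of 14.5% of 27025 genes (7.73% for GAANNTTC, 8.11% for TTCNNGAA), in 7 of 18 list members with a window and in 4 of the 6 called members with a window (Hspa1a, Hspa1b, Hsph1 and Dnaja1). A match is a description of the letters and no evidence of binding.

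Hspa1b passed in 27 of 27 fits that left out 1 array. Its level was 12.26, 12.63 and 13.14 in TNFR-Ig mice and 12.25, 13.31 and 14.10 in control IgG mice (-0.54 ± 0.11, adj. p = 0.0034). In experiment 10 the groups did not overlap, with 12.54 to 13.14 against 13.31 to 14.10. Its 2 dimmer probe sets gave -0.88 and -0.96. Hspa1a lay at 3.46, 4.27 and 5.07 against 3.24, 4.92 and 6.88 (-0.73 ± 0.22, adj. p = 0.042), and passed in 12 of 27 fits that left out 1 array. The pair's transcripts are nearly identical, and signal may be shared between their probe sets. Hsph1 lay at 12.90, 13.33 and 13.94 against 13.12, 13.81 and 14.27 (-0.37 ± 0.093, adj. p = 0.015). Dnaja1 and Dnajb1, co-chaperones that feed clients to HSP70, fell by 0.33 (SE 0.057, adj. p = 0.00074) and 0.26, Hsp90aa1 by 0.21 and the constitutive HSP70 gene Hspa8 by 0.083. Sdf2l1, a chaperone of the endoplasmic reticulum, fell by 0.42 (SE 0.11, adj. p = 0.015). Within experiment 10, 11 of the 21 fell and Hspb8, a small heat shock protein, rose by 0.42, where 3.97% of all genes fell and 4.88% rose. In experiment 7 limma called 0 of them and 0% of all genes. There 20 of 21 were below 0 and 6 had an unadjusted p under 0.05, all lower, against 6.71% of all genes in either direction.

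Glucocorticoids, the adrenal stress hormones, damp inflammation by turning on genes of metabolism and of signal inhibition. Of 24 genes that they are known to induce 8 rose and 0 fell, against 2.35% of all tested genes that rose, and the median was 0.30. Fam107a, which encodes an actin-binding protein of stress responses, lay at 5.96, 7.42 and 8.26 against 4.47, 6.17 and 7.98 (1.08 ± 0.31, adj. p = 0.032). Klf15, a transcription factor gene of amino acid and lipid use, lay at 3.56, 4.63 and 7.56 against 2.16, 3.51 and 6.18 (1.08 ± 0.31, adj. p = 0.032). The groups overlapped for both genes. Pik3ip1, an inhibitor of phosphoinositide 3-kinase, rose by 0.89 ± 0.21 (adj. p = 0.0084), and its ranges in experiment 10 did not overlap (6.31 to 8.40 against 5.61 to 6.18). The metallothionein genes Mt2 and Mt1, whose proteins bind zinc, rose by 0.64 and 0.38, the clock repressor gene Cry2 by 0.55 and the transcription factor gene Klf9 by 0.20. Angptl4 was also called in this list. It stands among the PPAR targets too, and Cry2 among the circadian clock genes, so these counts are not separate. Fam107a passed in 19 and Klf15 in 20 of 27 fits that left out 1 array. Against untreated mice the median of this list was -0.0082, with 2 of 24 higher (Cry2 and Tat), where 2.36% of all genes were higher and 0.646% lower. In control IgG against untreated mice 6 of 24 were lower and 1 higher, where 5.52% of all genes were lower and 4.82% higher.

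Lists of lipid genes had 2 of 12 PPAR targets and 3 of 11 adipocyte and lipid droplet genes called, all higher, against 2.35% of all tested genes that rose. Angptl4, the gene of a secreted inhibitor of lipoprotein lipase that fasting, glucocorticoids and the fatty acid sensors PPAR induce, lay at 8.79, 9.60 and 10.81 in TNFR-Ig mice, 7.39, 8.62 and 9.44 in control IgG mice and 8.73, 10.56 and 11.37 in untreated mice. It was 1.08 ± 0.30 higher than with control IgG (adj. p = 0.026) and passed in 23 of 27 fits that left out 1 array. Plin4, which coats lipid droplets, lay at 3.11, 5.24 and 7.08 against 2.27, 4.02 and 7.23 (1.34 ± 0.39, adj. p = 0.033); in experiment 10 its groups did not overlap, at 4.49 to 6.48 and 2.27 to 4.29. These were the 2 called of 12 PPAR targets, all 12 of which were above 0 (median 0.27). In experiment 10, 6 of the 12 rose, against 4.88% of all genes there, among them the fatty acid carrier gene Cd36 by 1.12 and Acot2 and Cpt1a, genes of mitochondrial fatty acid handling, by 0.66 and 0.26. Of 11 adipocyte and lipid droplet genes 3 rose: Plin4, the triglyceride lipase gene Pnpla2 (0.34 ± 0.076) and Pck1, which encodes a step of glucose and glycerol synthesis (0.34 ± 0.098). Fatty acid oxidation as a whole had 0 of 17 genes called by limma (1 at an unadjusted p under 0.05) and a median of 0.04.

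Macrophages clear dead cells and microbes, and those resident in the colon carry the growth factor receptor CSF1R and make complement. Of 22 monocyte and macrophage markers 6 rose and 0 fell, against 2.35% of all genes that rose, with 21 of 22 above 0 and a median of 0.46. Csf1r lay at 10.94, 11.67 and 12.21 in TNFR-Ig mice, 10.77, 11.10 and 11.49 in control IgG mice and 10.92, 11.69 and 12.04 in untreated mice. It was 0.49 ± 0.12 higher than with control IgG (adj. p = 0.012), and in experiment 10 the groups did not overlap (11.59 to 12.21 against 10.96 to 11.46). Adgre1, which encodes the macrophage antigen F4/80, lay at 8.21, 9.32 and 11.03 against 8.18, 8.82 and 9.46 (0.67 ± 0.21, adj. p = 0.047). It passed in 8 of 27 fits that left out 1 array and differed by 0.064 in experiment 7 and 1.29 in experiment 10. Mrc1 and Mertk, receptors for sugars and for dying cells, each rose by 0.33. Of 12 complement genes 4 rose, C1qc by 0.46, the inhibitor gene Serping1 by 0.39 and C1qb and C1s1 by 0.35, with all 12 above 0 and a median of 0.40. The 2 C1q genes stand in both lists, and C1qc was called in 12 of 27 fits that left out 1 array (adj. p up to 0.12). Of 8 Fc receptor genes, whose proteins bind the tails of antibodies such as control IgG, limma called 0, 2 had an unadjusted p under 0.05, and the median was 0.37. Neither macrophage nor complement genes were called against untreated mice (0 of 22 and 0 of 12), where their medians were -0.28 and -0.23; 4 and 0 of them had an unadjusted p under 0.05. In control IgG against untreated mice, which shares the control IgG arrays, 16 of 22 and 10 of 12 were lower, against 5.52% of all genes.

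Of 15 blood endothelial markers 3 rose, against 2.35% of all tested genes, and all 15 were above 0 with a median of 0.29. Vwf, the gene of the clotting protein that platelets bind, lay at 8.10, 8.59 and 8.98 against 7.53, 7.98 and 8.33 (0.64 ± 0.14, adj. p = 0.0063) and differed by like amounts in experiments 7 and 10 (0.60 and 0.66). Its groups did not overlap in experiment 10, at 8.49 to 8.98 against 7.65 to 8.19. Ackr1, a chemokine-binding receptor of venules, rose by 0.83 ± 0.23 and Plvap, a protein of capillary pores, by 0.31 ± 0.093 (adj. p = 0.024 and 0.046). Of 7 lymphatic markers 3 rose: Reln by 0.56, Lyve1 by 0.50 and Stab1 by 0.47. Lyve1, a hyaluronan receptor of lymph vessels, lay at 10.10, 10.62 and 11.15 against 9.48, 10.06 and 10.67. Of 19 fibroblast and matrix genes 3 rose, the platelet-derived growth factor receptor genes Pdgfrb and Pdgfra by 0.24 and 0.23 and the collagen gene Col6a1 by 0.24, and of 17 matrix proteases and inhibitors the inhibitor gene Timp2 by 0.21. With 1 array left out Pdgfrb was called in 9 of 27 fits (adj. p up to 0.12), Plvap in 12 and Timp2 in 13, while Vwf and Cdh19 were called in 27. Cdh19, a cadherin gene of glia, was the 1 called of 11 enteric neuron and glia markers: it lay at 6.19, 7.42 and 8.36 against 5.68, 6.58 and 7.58 (0.85 ± 0.17, adj. p = 0.0032).

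The circadian clock runs through repressors of the CRY, PER and REV-ERB families that switch off their own genes each day. Of 16 circadian clock genes 3 rose and 0 fell, against 2.35% of all tested genes that rose, with a median of 0.27. Cry2, a repressor of the clock, lay at 8.31, 8.84 and 9.90 in TNFR-Ig mice, 7.88, 8.35 and 8.91 in control IgG mice and 7.92, 8.35 and 8.77 in untreated mice (0.55 ± 0.11, adj. p = 0.0032). Per3, a partner of Cry2, rose by 0.51 ± 0.14 and the nuclear receptor gene Nr1d2 by 0.25 ± 0.069. Cry2, Per3 and Nr1d2 were also called against untreated mice, where 5 of 16 clock genes rose, against 2.36% of all genes: Nr1d1 by 1.09, Dbp by 1.00, Per3 by 0.71, Cry2 by 0.59 and Nr1d2 by 0.41. The hour at which each mouse was killed is not given, and its part in these differences was not tested.

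Interferon-stimulated genes, which viruses and activated lymphocytes induce, were below 0 in 22 of 22 cases with a median of -0.33, yet limma called 0 and 4 had an unadjusted p under 0.05, all lower. Mx1, an antiviral GTPase, and Cxcl10, a T cell chemokine, were at -0.57 ± 0.21 (adj. p = 0.11) and -0.72 ± 0.28 (adj. p = 0.12). Control IgG mice had 10 of these 22 genes higher than untreated mice, against 4.82% of all genes, with a median of 0.77. The 24 cell cycle genes had medians of 0.07 in experiment 7 and -0.36 in experiment 10, with 0 called in each. At an unadjusted p under 0.05 they numbered 0 and 15, against 6.71% and 24.9% of all genes. T and NK cell markers (0 of 8 called, median -0.33), B and plasma cell markers (0 of 9, median -0.0047), dendritic cell markers (0 of 5) and goblet cell markers (0 of 14, median 0.03) did not pass. At an unadjusted p under 0.05 there were 1, 0, 0 and 3 of them. Among 19 colonocyte markers the drug efflux pump gene Abcb1a rose by 0.25, and among 20 genes of oxidative phosphorylation the cytochrome gene Cycs fell by 0.11. Abcb1a passed in 16 and Cycs in 10 of 27 fits that left out 1 array. Dimmer probe sets for Cycs were at -0.054 and -0.0047 (adj. p = 0.56 and 0.98).

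**Figure D2:**
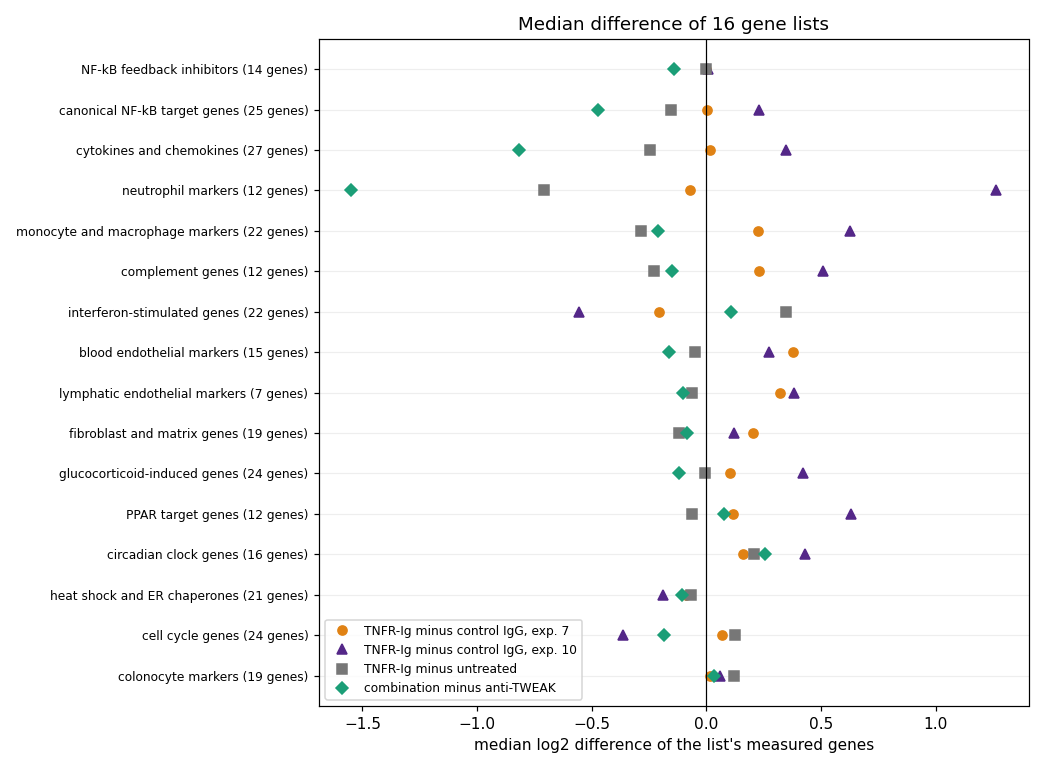
Median log2 difference of 16 gene lists for TNFR-Ig minus control IgG in experiment 7 and in experiment 10, for TNFR-Ig minus untreated, and for the combination minus anti-TWEAK. The neutrophil list stands at -0.07, 1.26, -0.71 and -1.55 in these comparisons, and the heat shock list at -0.09, -0.19, -0.07 and -0.11.

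The experiments did not contribute alike. Within experiment 10, 612 genes (4.88%) rose and 498 (3.97%) fell, while within experiment 7 limma called 0 genes (0%), with 841 at an unadjusted p under 0.05, or 6.71% of those tested. Of the 512 genes called over both experiments, 511 had the same sign in each and 459 differed by more in experiment 10. They were picked on these same arrays by their difference over both experiments, so a shared sign was largely set by that choice. The shared sign is therefore no evidence of replication in experiment 7. The difference between the experiments, tested as an interaction, was called for 0 genes (0%), with 1301 at an unadjusted p under 0.05, so that no single gene was shown to respond differently. Zc3h6 was among those with the smallest p, with 0.39 in experiment 7 and 1.64 in experiment 10 (interaction 1.25 ± 0.28, adj. p = 0.15). Ppp4r3a, a phosphatase subunit gene, was at -0.0009 and -0.32 (adj. p = 0.15). The count in experiment 10 was 380 without TNFR-Ig replicate 8, 571 and 686 without its replicates 1 and 4, and 558 and 637 without control IgG replicates 5 and 7, with replicate 4 between them.

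The largest changes within experiment 10 were rises. Beside Cyp1b1 (4.21 ± 1.07) and Mmp8, the carboxylate transporter gene Slc13a3 rose by 4.18 ± 1.08 (adj. p = 0.011), from 3.49, 4.90 and 5.84 in control IgG mice to 6.85, 8.94 and 11.38 in TNFR-Ig mice, with no overlap. Siglece, an inhibitory receptor of neutrophils and macrophages, rose by 2.60, with levels of 5.49 to 8.72 against 3.65 to 6.57. Depp1, a gene induced by fasting and progesterone, rose by 2.22. In experiment 7 the corresponding differences were 0.24 for Slc13a3, 0.26 for Siglece and 0.96 for Depp1. Falls in experiment 10 were led by Khdc1a (1.79), a gene of oocytes and embryos, then Mfsd2a (1.60) and Aunip (1.20), a mitotic and repair factor.

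**Figure D3:**
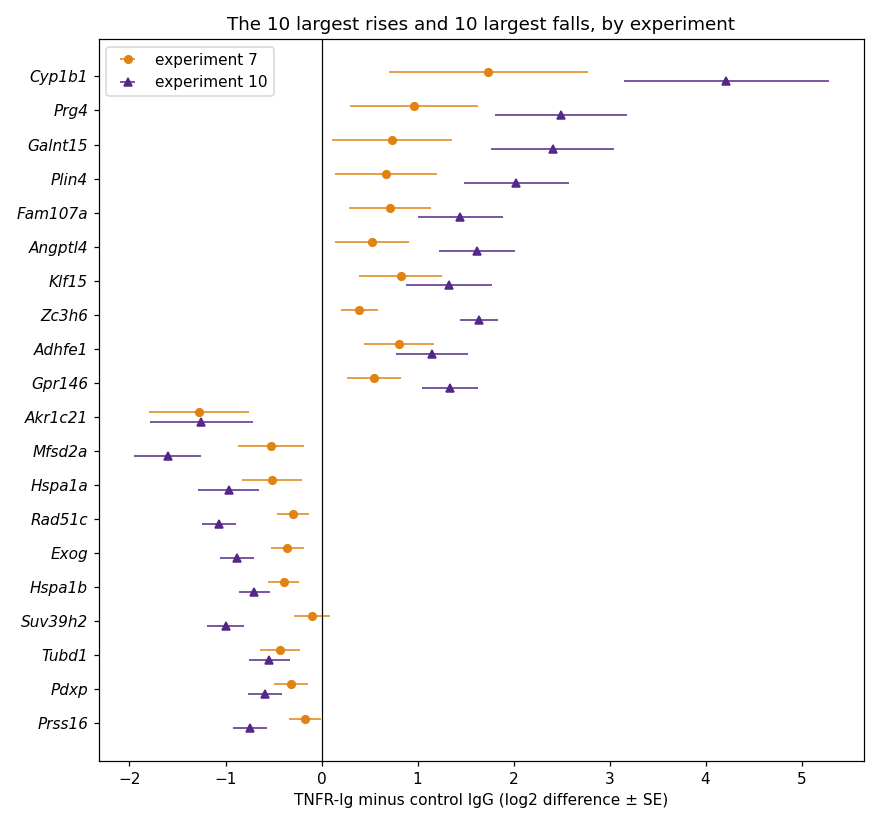
Log2 difference, TNFR-Ig minus control IgG, of the 20 genes with the largest rises and falls, in experiment 7 against experiment 10, with SE bars. Cyp1b1 lies at 1.74 and 4.21, Akr1c21 at -1.28 and -1.25, and most other genes are farther from 0 in experiment 10.

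In experiment 7 the genes with the smallest p were genes of skin lipids and of striated muscle, and none passed (adj. p of 0.26 to 0.28). Elovl4 and Sdr16c6, genes of very long chain fatty acids and of a dehydrogenase of skin, were at -5.62 ± 1.30 and -4.28 ± 0.99. Elovl4 lay at 2.80, 3.67 and 10.99 in TNFR-Ig mice and 3.71, 11.70 and 12.57 in control IgG mice. Myoz2, Tnnc1 and Tnnt1, genes of striated muscle fibres, were at -3.16, -1.58 and -1.26, and 4 of 6 TNFR-Ig arrays lay near the floor for Myoz2. Lists of squamous epithelium and skeletal muscle, which adjoin the colon at the anus and body wall, moved with them. The mean level of 11 squamous genes had medians of 5.25 and 8.77 (TNFR-Ig, control IgG) in experiment 7, and that of 12 muscle genes 7.68 and 8.99. Over both experiments the squamous list ran from 3.92 to 9.62 in TNFR-Ig and from 4.07 to 9.94 in control IgG mice, the muscle list from 3.47 to 11.88 and from 4.95 to 12.15, and the list of 10 exocrine pancreas genes from 4.14 to 13.03 and from 4.07 to 12.98. In experiment 7 the pancreas list had a median level of 5.73 in TNFR-Ig and 4.15 in control IgG mice. Limma called 0 genes of these 3 lists, and 6 squamous genes had an unadjusted p under 0.05; in experiment 7 alone 10 squamous and 5 muscle genes did, all lower. With the squamous list as a covariate 964 genes were called (501 of the 512 among them), with the muscle list 811 (512) and with the pancreas list 617 (498). Within experiment 10 the muscle covariate lowered the count from 1110 to 772, and 8 of the 16 genes of largest change there lost their call, Mmp8 (3.72, adj. p = 0.074), Siglece (2.41, adj. p = 0.056), Depp1, Khdc1a, Aunip and Hspa1a among them. The mean level of each of the 3 lists was above the floor on every array. Beyond these values their part in the results was not tested.

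**Figure D4:**
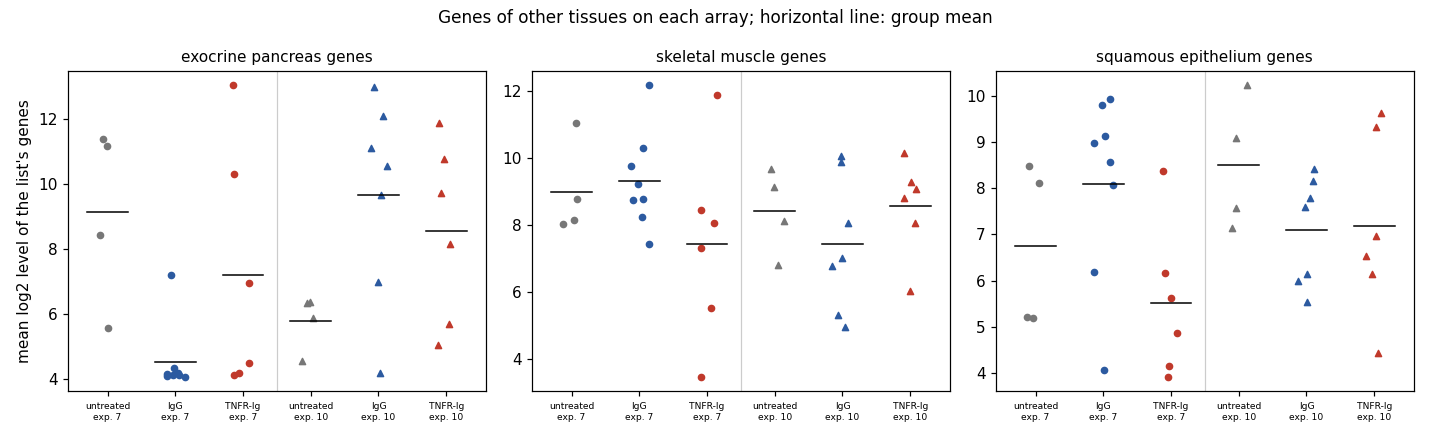
Mean log2 level of the lists of exocrine pancreas, skeletal muscle and squamous epithelium genes on each array, by group and experiment, with a line at each group mean. In experiment 7 the squamous list has a median of 5.25 in TNFR-Ig and 8.77 in control IgG mice, and the pancreas list runs from 4.14 to 13.03 in TNFR-Ig mice.

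Untreated colitic mice match the TNFR-Ig mice in having received no antibody. Against them 296 genes (2.36%) were higher and 81 (0.646%) lower in TNFR-Ig mice, a comparison that shares the 12 TNFR-Ig arrays. In control IgG against untreated mice, 604 (4.82%) were higher and 692 (5.52%) lower. Cyp1b1 was 3.0 higher in TNFR-Ig than in control IgG mice, -0.72 ± 0.95 against untreated mice (adj. p = 0.73) and 3.72 lower in control IgG than in untreated mice (adj. p = 0.0066). For Angptl4 the 3 values were 1.08, -0.52 and -1.60, for Prg4 1.74, -0.46 and -2.20, and for Akr1c21 -1.28, 0.78 and 2.06. Vwf was at 0.64, 0.0059 and -0.63. Among the 20 genes with the largest rises and falls, only Cyp1b1, Prg4, Angptl4, Adhfe1 and Akr1c21 changed sign against untreated mice. Zc3h6 was among those that kept their direction, at 0.99, 0.60 (adj. p = 0.062) and -0.39, as was Hspa1b at -0.54, -0.27 (adj. p = 0.28) and 0.27. With control IgG and untreated mice pooled as controls, 357 genes were called, 243 of them among the 512, and 36 named genes lost their call, Cyp1b1 (1.71, adj. p = 0.29), Vwf (0.42, adj. p = 0.11) and Csf1r (0.31, adj. p = 0.16) among them. Of the 20 genes with the largest rises and falls, Pdxp was the 1 called against both controls (-0.45 and -0.60, adj. p = 0.013).

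Some of the genes that differed most from untreated mice were not called against control IgG. Pax8, a transcription factor gene of thyroid and kidney, lay at 4.20, 5.12 and 5.94 with TNFR-Ig, 4.13, 5.20 and 6.07 with control IgG and 2.41, 4.04 and 4.90 untreated (1.10 against untreated, adj. p = 0.0024; -0.12 against control IgG, adj. p = 0.77). Slc10a2, the bile acid carrier of ileum, was 0.93 higher than in untreated mice and Tat, a liver-type enzyme of tyrosine breakdown that glucocorticoids induce, 0.79 higher. Fabp7, a fatty acid binding protein of glia, fell by 1.68 against untreated mice, and Atp8b4, Nfam1 and Myo1f, genes of a lipid flippase, an immune receptor and a myosin of white blood cells, fell by 1.35, 1.12 and 1.10. The last 3 were dim in TNFR-Ig mice, with medians of 2.16, 2.23 and 2.93. Clock outputs made up part of the rises, as given above.

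**Figure D5:**
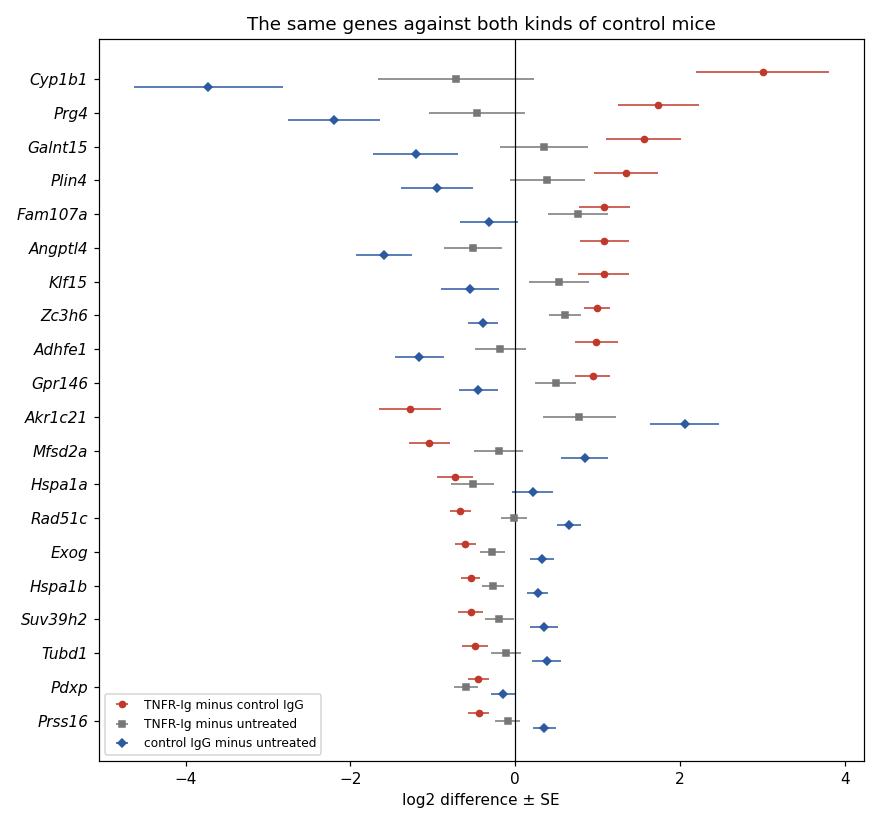
Log2 difference ± SE of the 20 genes with the largest rises and falls for TNFR-Ig minus control IgG, TNFR-Ig minus untreated and control IgG minus untreated; the comparisons share arrays. Cyp1b1 stands at 3.0, -0.72 and -3.72, Zc3h6 at 0.99, 0.60 and -0.39 and Pdxp at -0.45, -0.60 and -0.15.

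Another pair of groups sets TNFR-Ig against its absence with the same antibody in both, the combination (n = 15) against anti-TWEAK alone (n = 14), in other mice. Combination replicates 7 and 8 of experiment 7 were in the array run of experiment 10, unlike the anti-TWEAK mice of experiment 7. With those arrays left out, the comparison with control IgG, which sets no combination mice against others, had 745 genes called, 512 of the 512 among them. The combination minus anti-TWEAK pair was not refitted without those arrays, so the part of the array run in it was not tested. In the combination minus anti-TWEAK pair limma called 0 genes (0%), with 2258 at an unadjusted p under 0.05. Of the 512 genes called against control IgG, 332 (64.8%) had the same sign in this pair, against 57.7% of all tested genes, and 70 (13.7%) had the same sign with an unadjusted p under 0.05, against 11.9%. By direction, 168 of the 295 rises and 164 of the 217 falls had the same sign in this pair. Several leading rises stood below or near 0 there, with Cyp1b1 at -1.21 ± 0.77, Prg4 at -1.23, Fam107a at -0.94 and Zc3h6 at 0.055. Hspa1b was at -0.023, Hsph1 at -0.31, Per3 at 0.50 and Cry2 at 0.26. The inflammatory lists had lower medians in this pair than in the main comparison: neutrophil markers -1.55 against 0.56, cytokines and chemokines -0.82 against 0.21 and canonical NF-kB targets -0.47 against 0.12. At an unadjusted p under 0.05, 10 of 12 neutrophil markers, 15 of 27 cytokines and 18 of 25 NF-kB targets were lower in it. Of all tested genes 18.0% had such a p in this pair, in either direction. The difference between these pairs was not tested.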

How the data were processed

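Expression was measured in 72 mouse colons with Affymetrix arrays, and the authors deposited 1 table of log2 values with a floor of 2.08. RMA and GCRMA, with R 2.11.1 and limma 3.4.5, are named per the submitters' processing notes, and the method behind the table is not stated there. Of 45101 probe sets, 34945 carried 1 gene symbol (932 carried several, 9160 none, 64 were controls). Each of 18193 genes was represented by its probe set of highest mean, and 12534 genes with a mean of at least 2.42, the 40th percentile, were tested. Values near the floor, 37.5% of all, understate differences.

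A model with the 6 groups and the experiment was fitted in limma 3.58.1 (R 4.3.3), with Benjamini-Hochberg adjusted p over all tested genes; differences within and between experiments came from means of each group in each experiment. The procedure was tested on simulated data. The members, the 46 gene lists and the tests were chosen with earlier results of these data known. Named were the 10 largest called rises and falls whose sign was shared by experiments 7 and 10, up to 4 called members of a list by size (or the 2 of smallest p), pathway genes, the 5 of smallest p for differences between experiments, and up to 8 rises and falls within each experiment and against untreated mice. Where no gene was called the 5 of smallest p were named, and other list members were chosen after their values were seen. Predicted genes, clone names and a symbol with no annotated function were not named. A naive array with contradictory labels was kept as naive, as in its title. Promoters, 250 bases before the start site, are RefSeq's on GRCm38.p6. Alternatives covered filters, probe sets, normalization, weights, model terms, control mice, a replicate block and leaving out each array; covariates for other tissues and the combination minus anti-TWEAK comparison were chosen after seeing the data. The plots were made in matplotlib 3.10.9.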

Additional observations from a re-analysis of the deposited data

Results flagged for a closer look

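For the 20 genes with the largest rises and falls, the 4 groups of arrays by treatment and experiment were searched for an array far from its group by Dixon's criterion, and 8 of 80 groups held one, where chance gives about 1 in 20. Control IgG replicate 5 of experiment 7 was high for 3 genes that rose with TNFR-Ig: Prg4 at 4.85 (others 2.31 to 3.46), Galnt15 at 6.96 (2.58 to 4.16) and Klf15 at 6.18 (3.44 to 4.57). Control IgG replicate 3 of experiment 7 was low for Angptl4 at 7.39 (8.44 to 9.33), and control IgG replicate 4 of experiment 10 for Adhfe1 at 4.79 (5.96 to 6.67). TNFR-Ig replicate 1 of experiment 10 was low for Mfsd2a at 4.98 (6.80 to 7.87) and for Prss16 at 2.13 (2.45 to 2.61). TNFR-Ig replicate 4 of experiment 7 was high for Hspa1a at 4.91 (3.46 to 3.98). No difference between the experiments passed for these 20 genes.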

How the results depend on the processing

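The 512 calls moved by over 1.5 times with every probe set tested (897; 401 higher, 496 lower), with no experiment term (316), with the muscle (811) or squamous (964) covariate and with a minimum change of 0.5 (62), and ran from 218 to 788 with 1 array left out. Pooled controls gave 357 calls, of which 243 were among the 512. With the compared groups alone 489 genes were called, 342 of them among the 512, and 16 named genes lost their call. Experiment 7 gave 0 genes, 1 with the compared groups alone and 0 to 5 with 1 array left out. Experiment 10 gave 1110, 2021 with every probe set, 1950 with each experiment fitted alone and 307 with the minimum change, and from 380 to 1338 with 1 array left out. The difference between the experiments ranged from 0 to 5 genes with 1 array left out. Against untreated mice the 377 calls became 639 with every probe set, 248 with no experiment term, 585 with array weights, 120 with the compared groups alone and 70 with the minimum change, and ran from 268 to 425 with 1 array left out. The cause was not tested. With untreated mice as the control, the difference changed sign for Cyp1b1 (-0.72), Prg4 (-0.46), Angptl4 (-0.52), Adhfe1 (-0.18), Akr1c21 (0.78), Adgre1 (-0.49), Csf1r (-0.032), C1qc (-0.19), C1qb (-0.19), Plvap (-0.080), Reln (-0.016), Lyve1 (-0.038), Stab1 (-0.064), Pdgfrb (-0.015), Pdgfra (-0.00024), Timp2 (-0.053), Serping1 (-0.21), C1s1 (-0.12) and Cycs (0.018). Low signal limits Tnf and other genes near the floor.

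Replicate numbers were not shown to pair the mice: among 12 pairs the correlation of deviations ran from -0.41 to 0.42 (median 0.11), 6 exceeded 0.1 and 2 mice matched their own number best. With a replicate block 405 genes were called, 376 of them among the 512; experiment 7 gave 1, the difference between experiments 1 and the untreated comparison 129.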
